A study of Rattus norvegicus with 6 samples.

Results

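SYNCRIP, also named hnRNP Q, is a protein that binds RNA. Mitochondrial peaks of the minus strand, and of the plus-strand spans expected to hold the complex I and cytochrome b genes, are described here. They were read from the peak lists of 3 individual-nucleotide crosslinking and immunoprecipitation (iCLIP) libraries of rat cortical neurons. Members were chosen by position alone: plus-strand mitochondrial peaks that lie within bases 2661 to 5300 (the first span) or that begin at base 9401 or later (the second span), and all minus-strand mitochondrial peaks, on build rn6. This gave 94 of the 12583 peaks in the 3 lists, and 94 of the 249 mitochondrial ones. Replicates 1, 2 and 3 had 34, 34 and 26 of them, a mean of 31.3 ± 4.6 (SD, n = 3). The first span held 11, 12 and 11, the second 17, 20 and 11, and the minus strand 6, 2 and 4.

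Neurons were primary cortical cells of Sprague-Dawley rats, kept 6 days in vitro, exposed to UV-C light at 300 mJ/cm2 and extracted for cytoplasmic RNA. UV light links a protein to RNA that it touches, and after immunoprecipitation the recovered fragments are sequenced. The SYNCRIP group of 3 libraries was made with an anti-hnRNPQ antibody, and the control group of 3 with an mAb IgG1 Isotype. The design text calls the replicates biological. The control libraries were not analysed here, so every value describes SYNCRIP libraries with no background beside it. Transcript abundance was not measured either, so a stretch with few peaks may hold little RNA or little bound RNA, and these cannot be told apart.

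Both strands of mitochondrial DNA are transcribed into long precursors, which are cut mostly at the tRNAs that lie between the other genes. In the gene order that mammals share, Nd1 and Nd2 with several tRNAs lie between the ribosomal RNAs and Cox1, which is the first span. Nd3, Nd4l, Nd4, Nd5 and Cytb follow Cox3 in that order, ahead of the noncoding control region, which is the second span. Nd6 and some of the tRNAs are read from the other strand. The Nd genes encode core subunits of complex I, the NADH dehydrogenase at the entry of the respiratory chain, and Cytb encodes the only mitochondrially encoded subunit of complex III. No rn6 mitochondrial annotation was used here, so the spans follow this order, single peaks are given by position and none is assigned to a gene. For the same reason the labelled cell type was not set against neuronal or glial marker genes.

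The lists held 5687, 4163 and 2733 peaks in replicates 1, 2 and 3, all on a grid of 20-nt bins. Each peak carries the authors' whole-number score, with no stated unit. The lowest score was 32, 26 and 20 in the respective lists, so scores were compared between lists only as ranks. The score percentile used below is the share of peaks in the same list that score lower, with ties counted at their middle. Depth is unknown, and a missing peak does not show that a site was unbound. No peak crossed a limit of the spans. The nearest plus-strand peaks before the first span began at 2581, 2581 and 2521 with scores of 65, 48 and 37, and the first inside it began at 2941, 3021 and 2941 with scores of 37, 31 and 21. At its other end the last inside began at 4841, 4841 and 4881 with scores of 94, 61 and 20, and the next outside began at 5781 in each list with scores of 47, 58 and 23. Before the second span, the last peak began at 9241 in each list, with scores of 38, 41 and 20.

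Peaks lay in a few blocks, and long stretches between them were empty in all 3 lists. Plus-strand regions no more than 200 nt apart were joined, which gave 8 blocks. Regions are peaks of the 3 lists of one strand merged wherever they shared at least 1 bp. The first span had its peaks in 3 blocks, at 2941 to 3040, 3461 to 3640 and 3921 to 4900. The last of these held 11 of the 17 regions of the span, with 7, 9 and 7 peaks in replicates 1, 2 and 3. The second span had large blocks at 13081 to 14200, with 10, 10 and 4 peaks, and at 14721 to 15240, with 6, 7 and 6. Its other blocks were single bins at 12081 to 12100, 12341 to 12360 and 14481 to 14500. Replicate 3, whose list is the shortest, thus had fewer peaks than the other libraries in the first of the large blocks and a like number in the second. With lists cut to equal length, the second span held 7, 12 and 11 peaks in replicates 1, 2 and 3. Scores tied at the cut were kept in order of chromosome name, which put mitochondrial peaks after those of the numbered chromosomes. Members with the tied score, 46 in replicate 1 and 32 in replicate 2, were left out, so these counts depend partly on that order.

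**Figure D1:**
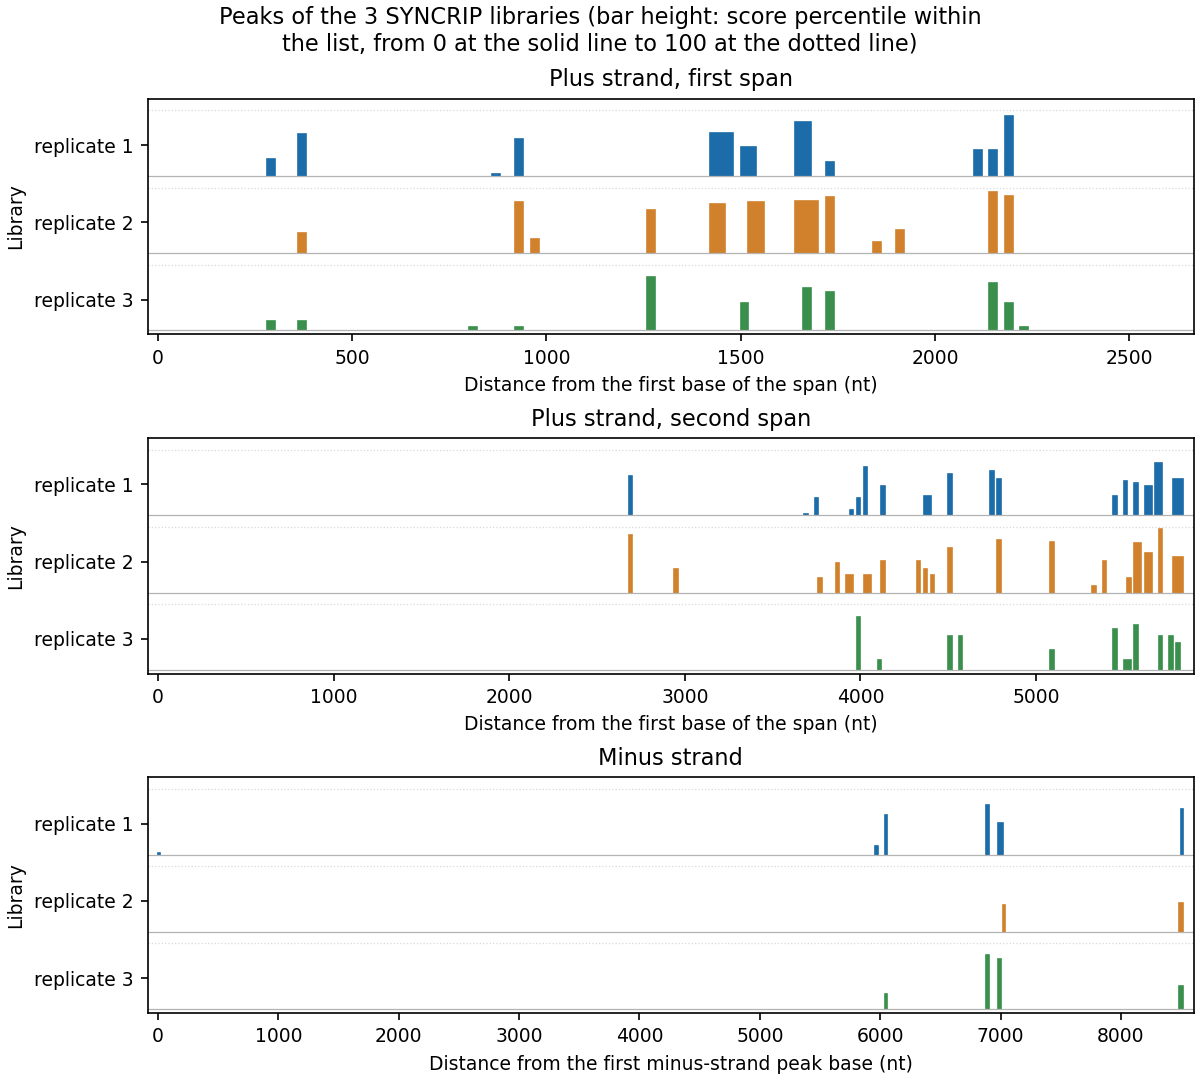
Position of every peak in the 3 SYNCRIP libraries, as distance in nt from the first base of each plus-strand span or from the first minus-strand peak; bar height is the score percentile within the list. The second span was empty over its first 2680 nt in each library, and the first span had its peaks in 3 blocks.

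The longest empty gap between plus-strand mitochondrial peaks opened the second span. From the end of the bin at 9241 to 9260, just ahead of the span, to the bin at 12081 to 12100, 2820 nt held no peak of any library, and 2680 of these lay in the span. In replicate 3, which had no peak at 12081, the empty stretch ran on for 4120 nt to the bin at 13381 to 13400. The next longest gap between plus-strand peaks, 880 nt from 4901 to 5780, took in the last 400 nt of the first span and the start of the COX stretch. The third such gap, of 720 nt, lay in the second span from 12361 to 13080. In gene order Nd3, Nd4l and Nd4 come first in the second span, and which of them the empty stretch covers was not analysed here. The 2820-nt stretch was known from earlier work on these lists, so its length is a description. No plus-strand peak lay after 15240 and no peak of either strand after 15380, where the control region closes the gene order; this tail was not ranked among the gaps, since the lists do not give the length of the chromosome.

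In the first span, 7 of 17 regions had peaks of all 3 libraries, and 5 of these were the same single bin in each list. Peaks of identical coordinates in all 3 lists numbered 6 for the 52 member regions and 815 for the 7023 regions of the whole series. Such identity is thus not read as particular to members. The bin at 4841 to 4860 scored 94, 61 and 25 in replicates 1, 2 and 3. It was the highest-scoring member of replicate 1, at rank 470 of 5687 peaks. Its neighbour at 4801 to 4820 scored 41, 77 and 34 and was the highest of the span in replicate 2. The order of the libraries by score percentile differed between these neighbours: 91.6, 86.5 and 41.3 for the first, and 39.1, 92.9 and 72.1 for the second. Each library had both bins, and replicates 1 and 3 ranked them differently.

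The other bins shared in full in the first span were at 4381 to 4400, 3581 to 3600 and 3021 to 3040. The bin at 4381 scored 36, 60 and 29, at percentiles of 21.8, 85.8 and 59.0. The bin at 3581 scored 48, 50 and 20, the last being the lowest score that the list of replicate 3 holds. The bin at 3021 scored 52, 31 and 21. Thus 2 of these bins stood near the floor of the list in replicate 3 and in the middle or upper part in replicate 1.

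A pair of wider regions completed the set of the first span. At 4301 to 4360 the scores were 70, 52 and 31, at percentiles of 82.6, 79.5 and 65.0, and the peak was 40, 60 and 20 nt wide in replicates 1, 2 and 3. It had the highest mean percentile of the fully shared regions of the first span (75.7 ± 9.4, SD, n = 3). At 4161 to 4220 the scores were 43, 50 and 25. The peaks of replicates 1 and 2 there overlapped by a single bin. The highest peak of the span in replicate 3, at 3921 to 3940 with a score of 40, had a partner in replicate 2 with a score of 42 and none in replicate 1.

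In the second span, 5 of 28 regions had peaks of all 3 libraries, and 4 of these lay in its last block. The region at 15081 to 15120 scored 67, 103 and 27, at percentiles of 80.3, 96.7 and 51.1. Its peak in replicate 2, at rank 137 of 4163, was the highest-ranking member of any list. The region at 14961 to 15000 scored 45, 48 and 32. Both stood at percentiles above 75 in replicate 2, and the order of the libraries differed between them.

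The region at 15181 to 15240 scored 47, 37 and 25, at percentiles of 54.7, 54.4 and 41.3, the closest ranks among the libraries in the fully shared set. Replicate 3 had another peak next to it, at 15161 to 15180 with a score of 27, which touched the region without overlap. The region at 14901 to 14940 scored 46, 29 and 21. There the peaks of replicates 1 and 2 were adjacent bins, joined by a 40-nt peak of replicate 3. Of the fully shared regions of the second span, the remaining one, at 13901 to 13920, lay in the earlier block and was the same bin in each list, with scores of 51, 43 and 27 and percentiles of 62.5, 67.6 and 51.1.

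Replicates 1 and 2 alone shared 7 more regions of the second span, against 1 in the first span. Among them was the isolated bin at 12081 to 12100 that ends the empty stretch, with scores of 50 and 62 at percentiles of 60.6 and 87.1. The highest peak of the span in replicate 3, at 13381 to 13400 with a score of 39, had a partner in replicate 1 with a score of 37 and none in replicate 2. In percentiles these were 80.2 and 25.9. Replicates 1 and 3 alone shared 2 regions of the span, and replicates 2 and 3 alone 1.

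**Figure D2:**
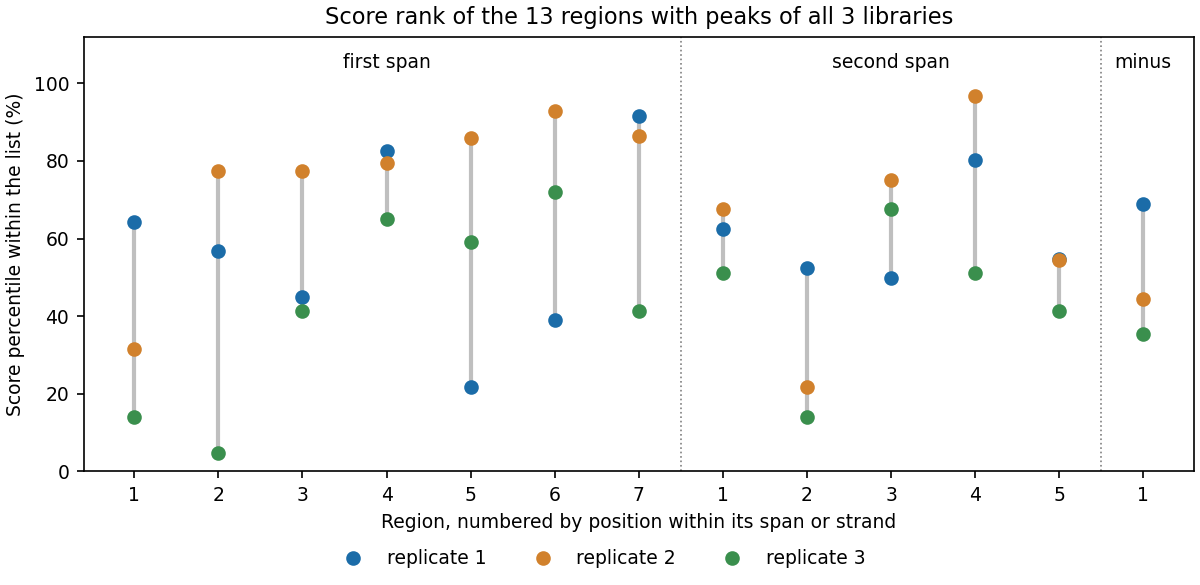
Score percentile within the list for the 13 regions with peaks of all 3 libraries, in order of position; each point is 1 library and the grey bar spans the 3. The percentiles of 1 region differed widely between libraries, for example 21.8 to 85.8 for the fifth region of the first span, and the last region of the second span had the closest, 41.3 to 54.7.

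The minus strand held 12 peaks in 7 regions, of which all but the first, at 6861, began at 12821 or later. The region at 15341 to 15380, the last mitochondrial peak of all, was shared by all 3 libraries, with scores of 55, 34 and 24 at percentiles of 68.9, 44.4 and 35.5. At 13741 to 13760 only replicates 1 and 3 had a peak, with scores of 61 and 41 at percentiles of 75.8 and 82.2. In replicate 3 this was the highest-scoring member of either strand, at rank 472 of 2733. The minus-strand peaks therefore included members of upper rank, although they were few.

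Replicates 1 and 3 also shared a pair of minus-strand regions. The one at 13841 to 13880 scored 44 and 36, and the other, at 12901 to 12920, scored 50 and 22. Replicate 2 had a peak at 13881 to 13900 with a score of 33, which touched the first of these without overlap. The bins at 12821 to 12840 and 6861 to 6880 were found in replicate 1 alone, with scores of 34 and 32. The bin at 6861 was the single minus-strand region that overlapped a plus-strand peak, one of replicate 3 at the same coordinates with a score of 46. Nd6 is the protein gene of this strand, and whether these peaks lie in it was not analysed here.

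Over both strands, 13 of the 52 member regions (25.0%) had peaks of all 3 libraries, and of the 7023 regions in the whole series 24.9% did. At least 2 libraries had peaks in 29 of the 52 (55.8%), beside 48.2% in the whole series. The share of fully shared regions was thus close to that of the series, and below those of the other plus-strand mitochondrial stretches. These were 36.1% (13 of 36) between the spans and 77.8% (21 of 27) ahead of the first span. By span, full sharing was found in 7 of 17 regions (41.2%), 5 of 28 (17.9%) and 1 of 7 (14.3%) for the first span, the second span and the minus strand. Regions of a span or stretch are not independent replicates, so these differences were not tested. Replicate 1 alone had 7 member regions, replicate 2 alone 11 and replicate 3 alone 5. When scores under 1.5 times the lowest of a list were left out, 1 of the 13 fully shared regions kept peaks in all 3 libraries, the one at 4301 to 4360, and with lists of equal length 7 did.

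Sharing between pairs of libraries had a narrower range in the first span than in the second. The share of peaks that overlapped one of another library lay between 58.3% and 72.7% over the 6 ordered pairs in the first span, and between 30.0% and 64.7% in the second. The lowest value was that of replicate 2 peaks in replicate 3, with 6 of 20. On the minus strand all 4 peaks of replicate 3 overlapped replicate 1, while 1 of 6 peaks of replicate 1 overlapped replicate 2. The mean over the 6 pairs was 56.9% for all members and 60.7% for nuclear peaks. On the mitochondrial plus strand it was 69.6% between the spans and 92.6% ahead of the first span. The share also depends on how many peaks the other list holds. Replicates 1, 2 and 3 had 11, 12 and 11 peaks in the first span, 17, 20 and 11 in the second, and 6, 2 and 4 on the minus strand. Nuclear pairs ranged from 35.8% to 81.4%. As these pairs also share libraries, the values are a description, and the ranges are not read as differences in agreement.

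Of the 94 member peaks, 23 (24.5%) overlapped no peak of another library, 7 in replicate 1, 11 in replicate 2 and 5 in replicate 3. This share and the ranks below were not computed over all peaks, so neither is read as particular to members. By region, at least 2 libraries had peaks in 55.8% of member regions and in 48.2% of those of the whole series. Many of the 23 peaks had a neighbour close by: 6 touched a peak of another library, and 15 lay within 40 nt of one. Their scores ranked lower, with a median percentile of 13.0, 35.9 and 14.0 in replicates 1, 2 and 3, against 54.7, 75.2 and 51.1 for peaks with a partner. An exception was the bin at 14141 to 14160 of replicate 1, which scored 54 at a percentile of 67.6 and had no partner. The bins at 13961 to 13980 and 15161 to 15180 of replicate 3 also had none. Both stood at 51.1, level with the median of peaks with a partner in that list. In replicate 3, rank did not follow the number of libraries: regions with peaks of all 3 had a median percentile of 41.3 there, and those with peaks of 2 had 69.0.

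**Figure D3:**
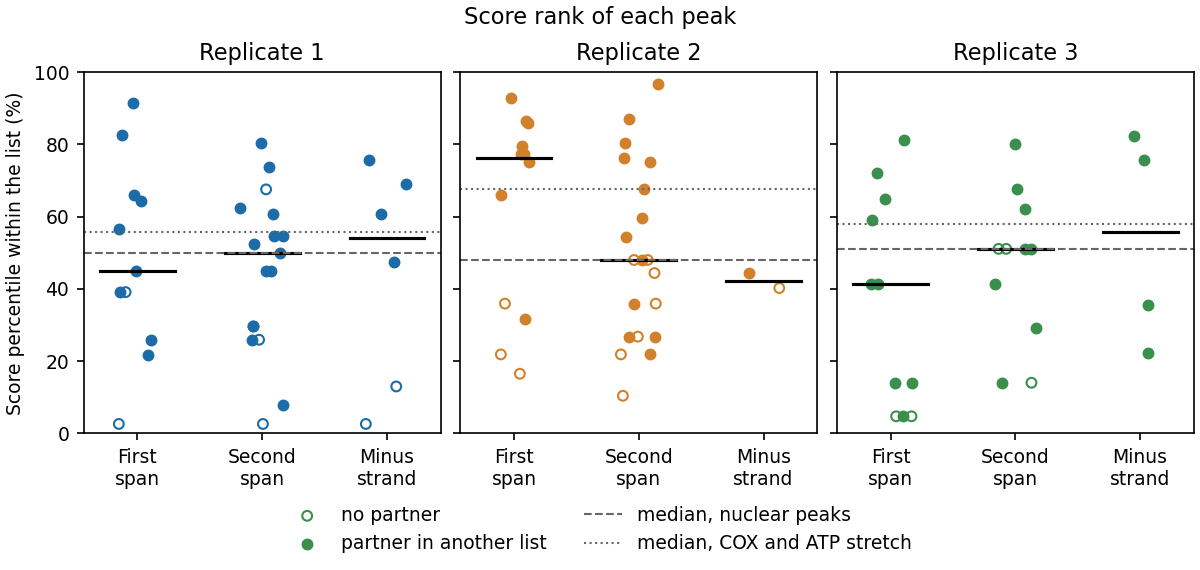
Score percentile within the list for each peak of the first span, the second span and the minus strand in each library; filled points had a partner in another list, open points had none, black bars are medians, and the dashed and dotted lines are the medians of nuclear peaks and of the COX and ATP synthase stretch. Open points lie mostly in the lower part of each panel, and the first span stands highest in replicate 2, with a median of 76.3.

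Over whole lists, the median percentile of member peaks was 48.7, 48.0 and 46.2 in replicates 1, 2 and 3, beside 49.9, 48.0 and 51.1 for nuclear peaks. The difference was -2.03 ± 2.56 percentage points (SD, n = 3, p = 0.50, exact two-sided sign-flip permutation test over libraries). With 3 libraries this test cannot give a p under 0.25. The size of the difference depended on which peaks entered: it was -14.5 percentage points with scores under 1.5 times the lowest of a list left out (exact p = 0.25), -4.63 with lists of equal length, -3.05 without replicate 2 and -0.60 without replicate 3. Of the members, 61.8%, 55.9% and 69.2% scored under 1.5 times the list's lowest, beside 55.7%, 58.7% and 60.7% of all peaks. The first span had medians of 45.0, 76.3 and 41.3 and the second 49.9, 48.0 and 51.1, so the order of the spans was not the same in each library (difference 4.52 ± 20.7, SD, n = 3, exact p = 1).

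In gene order, the genes of cytochrome oxidase (COX) and ATP synthase subunits lie in the neighbouring stretch between the spans. Its peaks had a higher median percentile than pooled member peaks in each library. That stretch had median percentiles of 55.7, 67.6 and 58.0, and members minus that stretch gave -6.95, -19.6 and -11.9 percentage points (mean -12.8 ± 6.4, SD, n = 3, exact sign-flip p = 0.25, the smallest possible). Pooled members were thus lower in 3 of 3 libraries, in a design that cannot pass a threshold of 0.05. This did not hold for the first span by itself. Its median in replicate 2, 76.3, stood above the 67.6 of that stretch, and those in replicates 1 and 3, 45.0 and 41.3, stood below. The second span (49.9, 48.0 and 51.1) and the minus strand (54.1, 42.3 and 55.7) were lower in each library.

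In each library, peaks also covered less of the spans than of the other plus-strand stretches. They covered 8.73%, 9.91% and 5.42% of both spans in replicates 1, 2 and 3, where the second span is taken to end at its last peak base, 15240. In the COX and ATP synthase stretch they covered 19.5%, 17.1% and 10.7%, and in the stretch ahead of the first span, which holds the ribosomal RNAs, 69.2%, 67.7% and 60.2%. The spans were lower in 3 of 3 libraries in both comparisons. The difference was -7.75 ± 2.79 percentage points from the COX and ATP synthase stretch and -57.6 ± 2.9 from the ribosomal stretch (SD, n = 3, p = 0.25 each, exact two-sided sign-flip permutation test, the smallest possible). The spans include the 2680 nt known beforehand to be empty, so a lower covered share was partly set in advance. These differences are therefore a description, and no conclusion is drawn from their p-values.

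The difference from the COX and ATP synthase stretch was smaller without the empty stretch. With the second span counted from its first peak, a choice made after the data were seen that leaves the empty ends of the other stretches in place, peaks covered 12.8%, 14.5% and 7.93% of the spans. The difference was then -4.05 percentage points and still below 0 in 3 of 3 libraries. By itself the first span, with its empty ends, was covered to 11.4%, 12.1% and 8.33% (10.6% ± 2.0, SD, n = 3). The second span, taken from its first to its last peak, was covered to 13.9%, 16.5% and 7.59% (12.7% ± 4.6, SD, n = 3). The limits of the spans are thus drawn differently, and these values were not compared.

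**Figure D4:**
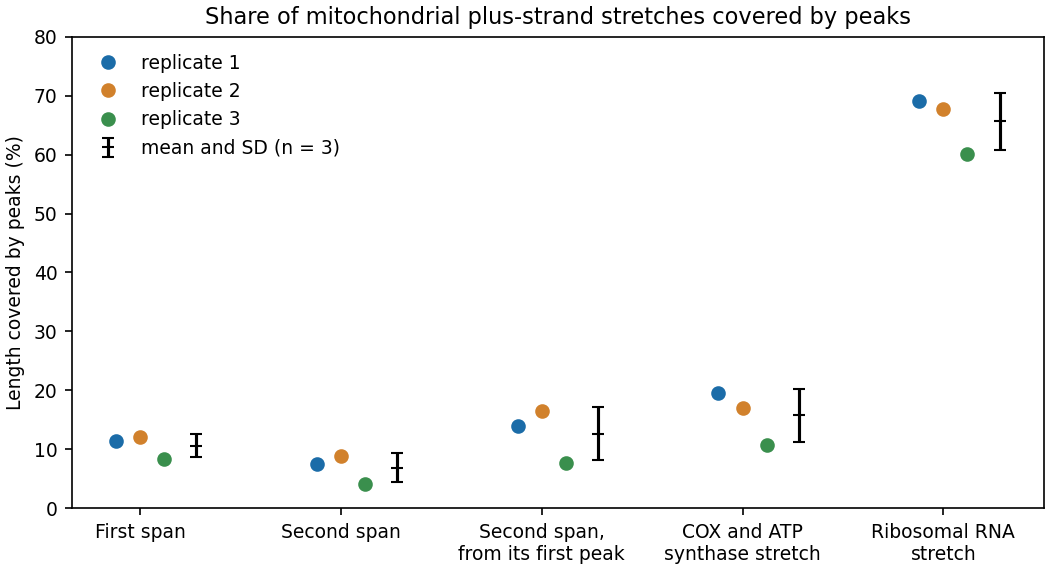
Percent of the length of mitochondrial plus-strand stretches covered by peaks, for each of the 3 SYNCRIP libraries (points) with mean and SD. The first span lay between 8.33% and 12.1%, and the ribosomal RNA stretch between 60.2% and 69.2%.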

How the data were processed

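Peak lists of 3 SYNCRIP iCLIP libraries were used. The submitters' processing notes name STAR, without a version, and build rn6. Per the names of the deposited lists, peaks were found with Piranha in bins of 20 nt, for each library separately. Not given in the sources used here are its threshold, whether PCR copies were collapsed, and whether IgG libraries entered the calling. The score of each peak is the authors' deposited whole number, with no stated normalization. Positions are 1-based. A single row with its end before its start was left out.

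Members follow position limits on the mitochondrial chromosome. The members and lists were chosen with earlier results of these data known. Regions merge peaks that overlap by at least 1 bp on a strand. By the naming rule, every member region with peaks of all 3 libraries, every minus-strand region and the highest-scoring peak of each library in each span are named; other regions named were chosen after their values were seen. Differences within libraries were tested with an exact two-sided sign-flip permutation test. Its p-values reflect only the signs and relative sizes of the differences in these 3 libraries, and do not measure their spread. Python 3.11.15, pandas 2.3.3 and NumPy 2.4.6 were used, and the code was checked on simulated lists. The alternatives were leaving out each replicate, stricter scores, lists cut to equal length, peaks touching a span, and other overlap rules.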

Additional observations from a re-analysis of the deposited data

How the results depend on the processing

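With scores under 1.5 times the lowest of a list left out, the mean member count per library was 12 in place of 31.3, the minus-strand mean was 1.67 in place of 4, and fully shared member regions numbered 1 in place of 13, since fewer peaks enter. Fully shared regions numbered 7 with each list cut to the length of the shortest, and 6 with identical coordinates required, where the whole series had 815. A reciprocal overlap of 50% gave 9 and a distance of up to 20 nt gave 12. The distance rule joins neighbouring regions into fewer and longer ones, so its 12 has a different total and does not show less sharing. With 1 replicate left out they numbered 14 to 20, since both remaining libraries are then enough: 14 without replicate 1, 19 without replicate 2 and 20 without replicate 3. The difference in covered share from the COX and ATP synthase stretch was -4.05 percentage points with the second span counted from its first peak, an alternative added after the data were seen. The median percentile difference from nuclear peaks kept its sign and was -14.5 percentage points under the stricter score (exact p = 0.25), -4.63 at equal list length and -3.05 to -0.60 with 1 replicate left out. The signs of both covered-share differences were the same under each alternative run for them. The alternatives only remove peaks or leave them as they are, so they could not shorten the empty 2680 nt of the second span and say nothing about its stability. Counting peaks that touch a span changed no value, since none crosses a limit. Sequencing depth is unknown. No paired analysis was possible because only SYNCRIP libraries entered, and the IgG group with the same replicate numbers was not analysed here.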
